A study of Homo sapiens with 6 samples.

Results

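Reads from tRNA, Y RNA and 5.8S ribosomal RNA were followed in small RNA libraries of BEAS-2B, an established immortalised line of human bronchial epithelial cells. The members were the 3 rows that the tables list under the Rfam identifiers RF00005 (tRNA), RF00019 (Y RNA) and RF00002 (5.8S rRNA), out of 4212 rows in all, 5.8 being the sedimentation value by which that rRNA is named. Rfam is a database of RNA families, so each row stands for a family and not for a single gene. Which genes fed each row was not given in the sources used here. All 3 rows were present in all 6 libraries and passed the filter on low counts. The control group (n = 3) received the empty plasmid pcDNA3.1 and the PRMT1 group (n = 3) a plasmid named pcDNA-PRMT1, for PRMT1 over-expression, both for 48 h. PRMT1 is the main enzyme that puts asymmetric dimethyl marks on arginines of RNA-binding and other proteins, and its own level was not analysed here. Whether the 3 replicates of a group came from separate cultures is not stated, and the p-values therefore cover the spread among these libraries, which may be technical. In bulk RNA, fewer cells of a type and less RNA per cell cannot be told apart.

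Transfer RNAs carry amino acids to the ribosome, and both they and the Y RNAs are transcribed by RNA polymerase III. Under stress, nucleases such as angiogenin cut tRNAs in the anticodon loop into stable pieces. Y RNAs are short RNAs whose paired ends are bound by the Ro60 protein and whose 3′ oligo-U tail is bound by La, and they are also cut into small pieces in dying or stressed cells. The 5.8S rRNA is made by RNA polymerase I within the same precursor as the rRNAs of the small subunit and of the main body of the large subunit, and sits in the large ribosomal subunit.

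The sequences below show the RNAs behind the Y RNA and 5.8S rows. GENCODE release 29 (GRCh38) supplied them, while the submitters' processing notes name another build. As examples of Y RNA, 2 single-exon genes on chromosome 7 are shown, RNY1 at chr7:148987136-148987248 on the minus strand and RNY4 at chr7:148963315-148963410 on the plus strand. Capitals mark the 11 bases that lie in runs of 10 bases found in both.
RNY1: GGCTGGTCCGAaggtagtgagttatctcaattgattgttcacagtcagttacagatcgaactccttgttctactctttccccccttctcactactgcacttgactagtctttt
RNY4: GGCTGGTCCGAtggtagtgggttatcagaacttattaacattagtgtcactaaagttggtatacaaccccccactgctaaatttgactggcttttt
RNA5-8SN2: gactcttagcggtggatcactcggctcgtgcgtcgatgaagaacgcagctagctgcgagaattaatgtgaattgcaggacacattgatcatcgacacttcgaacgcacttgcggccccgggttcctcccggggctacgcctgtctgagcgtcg

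All capitals fell at the 5′ end, where both RNAs begin alike. Over their whole length RNY1 and RNY4 shared 63.7% of the bases of the longer RNA. GENCODE lists 812 Y RNA loci, of which 756 are named RF00019 and 53 are named RNY pseudogenes. The first 20 bases of RNY1 occurred in 3 of these loci and those of RNY4 in 7. The 5.8S sequence is that of RNA5-8SN2 at chr21:8212572-8212724 on the plus strand, 153 bases long, and the 4 annotated copies of that name on chromosome 21 were identical. The annotated 5.8S pseudogene RNA5-8SP6 shared a run of 61 bases with it, and the other 4 pseudogenes shared shorter runs of 12 to 25 bases. GENCODE also lists 5 genes named RF00002, whose sequences were not compared. For the tRNA row, the RefSeq gene table (GRCh38.p14) lists 443 nuclear and 22 mitochondrial tRNA genes. How reads that match several genes or families were divided was not given in the sources used here, so no value below belongs to a single gene.

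The total count ran from 23.95 M to 25.79 M per library. Known mature miRNAs took 46.2% to 65.5% of these counts and all Rfam families 5.08% to 10.98%. No library was a copy of another: for the closest pair, chi-square divided by its degrees of freedom was 375.88. That pair was control library 1 and PRMT1 library 2, and the closest pair within a group was PRMT1 libraries 2 and 3, at 460.86. Markers of epithelium, 7 of 7 miRNAs of the miR-200 family, miR-205 and miR-203a, were detected and summed to 7674 to 10060 CPM (counts scaled to a fixed total, here that of known miRNA counts) in control and 8170 to 8815 in PRMT1 libraries. The miR-200a-3p, miR-200b-3p and miR-429 members held most of that sum. The other listed epithelial names were low, with miR-200c-3p at most 54.4 CPM and miR-141-3p at most 25.8 CPM. MiR-205-5p reached at most 9.36 CPM and miR-203a-3p at most 4.44 CPM. Of the blood markers 6 of 6 were listed, at a sum of 52.2 to 138 CPM in control and 66.9 to 91.9 in PRMT1 libraries, with miR-223-3p, miR-142-3p, miR-142-5p and miR-144-3p at or near 0. The blood marker miR-486-5p, at 45.5 to 134 CPM, stood above the epithelial names miR-141-3p, miR-205-5p and miR-203a-3p. A pair of libraries stood apart. PRMT1 library 1 held 5.08% of its counts in Rfam families, against 7.24% or more in the others. Control library 2 held 43.2% of its counts in miR-21-5p, against 34.2% or less in the others, and 2.89% in the mir-21 precursor family, against 0.345% or less. The labels' extraction protocol mentions enzymatic removal of rRNA, and whether that step preceded these small RNA libraries was not given in the sources used here.

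Transfer RNA fragments were the scarcest of the 3 families, and their mean was higher in PRMT1 libraries by less than the spread between libraries. They took 0.382%, 0.352% and 0.324% of the library total in control libraries 1, 2 and 3, and 0.292%, 0.560% and 0.502% in PRMT1 libraries 1, 2 and 3. PRMT1 libraries 2 and 3 lay above every control library and PRMT1 library 1 below every one, so the groups overlapped. Over all 1730 tested rows, 130 (7.51%) had shares that did not overlap in either direction. The means were 0.353% ± 0.0290 (SD, n = 3) for control libraries and 0.451% ± 0.141 (SD, n = 3) for PRMT1 libraries, and the comparison gave a two-sided exact permutation p of 0.4, or 0.583 after Benjamini-Hochberg adjustment over 7 shares and ratios. The SD was 8.22% of the mean in control and 31.2% in PRMT1 libraries. Between the lowest and the highest library the share differed 1.92-fold, the narrowest span of the 3 families. Without PRMT1 library 1 the difference in share was 0.178 percentage points, against 0.0983 with it. The groups then no longer overlapped (exact permutation p = 0.2, the smallest that 3 against 2 libraries allow). How many of all tested rows did so without that library was not counted. With PRMT1 library 2 out the difference was 0.0441 percentage points and the groups overlapped.

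Y RNA fragments were more abundant than tRNA fragments in every library, and their groups overlapped widely. They took 0.710%, 0.765% and 1.39% of the library total in control libraries 1, 2 and 3, and 0.433%, 1.25% and 0.916% in PRMT1 libraries 1, 2 and 3. Control library 3 was highest and PRMT1 library 1 lowest, with the other libraries of both groups between them. The means were 0.955% ± 0.378 (SD, n = 3) and 0.867% ± 0.413 (SD, n = 3), with an exact permutation p of 0.9 (adjusted 0.9). Without control library 3 or without PRMT1 library 1, the mean was higher rather than lower in PRMT1 libraries, by 0.130 and 0.129 percentage points.

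The 5.8S rRNA gave the most reads of the 3 families in every library. It took 1.70%, 1.19% and 2.53% of the library total in control libraries 1, 2 and 3, and 0.594%, 1.75% and 1.27% in PRMT1 libraries 1, 2 and 3. The order of the extremes was that of Y RNA, with control library 3 highest and PRMT1 library 1 lowest, a 4.25-fold span. The means were 1.81% ± 0.673 (SD, n = 3) and 1.205% ± 0.583 (SD, n = 3), with an exact permutation p of 0.5 (adjusted 0.583). The difference of -0.601 percentage points was -0.295 with PRMT1 library 1 omitted, -0.241 with control library 3 omitted, -0.908 with control library 2 omitted and -0.602 when control library 2 and PRMT1 library 1 were both omitted, and the groups overlapped in each case.

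**Figure D1:**
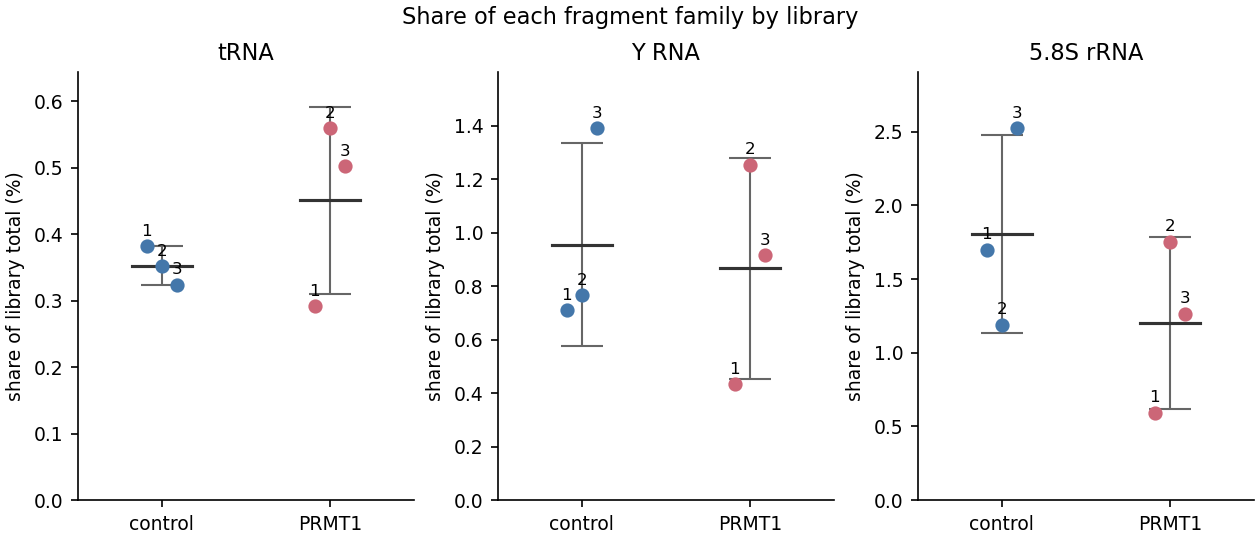
Share of the library total in percent (vertical axis, from 0) for tRNA, Y RNA and 5.8S rRNA in control and PRMT1 libraries; points are libraries labelled by number, thick lines the group means and bars 1 SD (n = 3). PRMT1 library 1 is lowest in all 3 panels, and control library 3 is highest for Y RNA and 5.8S rRNA but not for tRNA.

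Summed over the 3 families the share was 3.11% ± 1.01 (SD, n = 3) for control libraries and 2.52% ± 1.13 (SD, n = 3) for PRMT1 libraries (exact permutation p = 0.5, adjusted 0.583). In the order of mean levels, 5.8S rRNA at 1.51% of the library total over all 6 libraries stood above Y RNA at 0.911% and tRNA at 0.402%. That order held in each library. Among 321 Rfam families outside miRNA precursors and small nucleolar RNAs, 5.8S rRNA ranked 2, Y RNA ranked 4 and tRNA ranked 6 by mean share. The 95% Wilson intervals of these shares were at most 0.00628 percentage points to each side, which covers counting error only, so the differences between libraries of a group were far larger than counting error.

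Fitted over all rows with edgeR's quasi-likelihood test, 0 of the 3 families passed a Benjamini-Hochberg adjusted p of 0.05, and 0 of 1730 tested rows did (0% called). At an unadjusted p under 0.05 there were 64 rows, 27 higher and 37 lower in PRMT1 libraries, and DESeq2 called 10 of 4200 rows (0.238%), none of them a member. The log2 fold change of PRMT1 over control was 0.24 for tRNA (SE 0.32, 95% interval -0.53 to 1.01), -0.23 for Y RNA (SE 0.47, interval -1.36 to 0.90) and -0.66 for 5.8S rRNA (SE 0.46, interval -1.77 to 0.45). Their adjusted p-values from edgeR were all 0.998. The intervals are wide and do not show that the groups were alike. The median log2 fold change of all tested rows was -0.06.

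The sizes of these folds depended on which libraries were in the fit. For tRNA the log2 fold change was 0.54 without PRMT1 library 1 and 0.61 without both libraries that stood apart, with adjusted p-values of 0.998 and 0.999 from edgeR. It was 0.12 with PRMT1 library 2 left out and 0.14 with control library 3 left out. The 5.8S rRNA value was -0.29 with PRMT1 library 1 left out, -0.39 with control library 3 left out and -0.99 with PRMT1 library 2 left out. It was -0.46 without control library 2 and PRMT1 library 1 together. Y RNA changed sign, to 0.08 with control library 3 left out and to 0.14 with PRMT1 library 1 left out. Over the omission of each library in turn, tRNA stayed above 0 and 5.8S rRNA below 0.

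**Figure D2:**
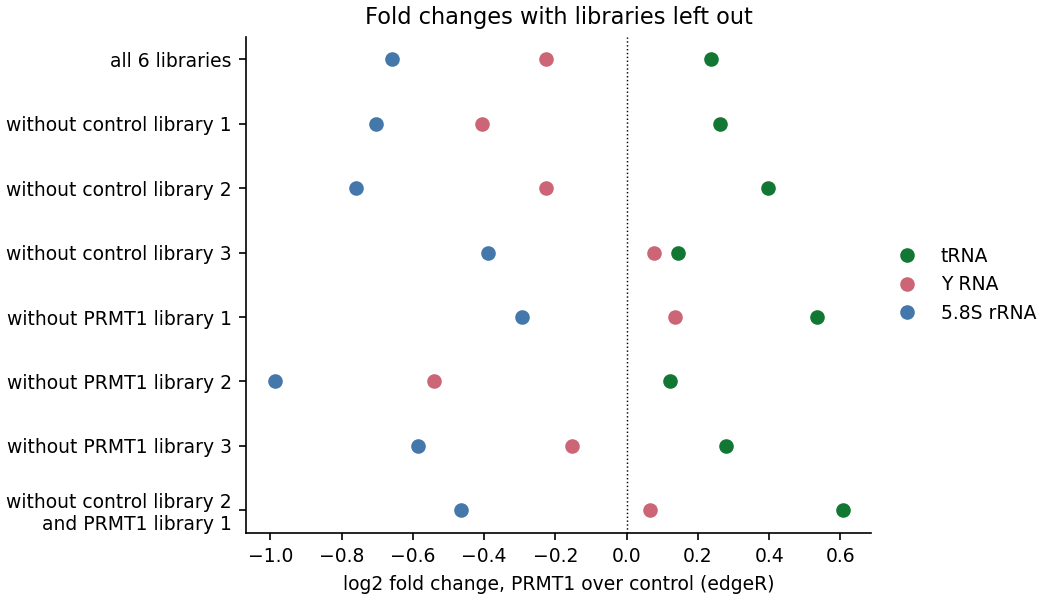
Log2 fold change of PRMT1 over control from edgeR (horizontal axis) for the 3 families with all 6 libraries and with the libraries named on the vertical axis left out. Green points (tRNA) stay above 0 and blue points (5.8S rRNA) below 0 in every row, while pink points (Y RNA) fall on both sides.

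Ratios between families within a library do not depend on the library total. For every 100 reads of 5.8S rRNA there were 22.5, 29.6 and 12.8 tRNA reads in control libraries 1, 2 and 3, and 49.2, 31.9 and 39.6 in PRMT1 libraries 1, 2 and 3. Every PRMT1 library lay above every control library, as was so for 158 of 1729 tested rows (9.14%) relative to 5.8S rRNA. The mean log2 ratio was higher by 0.96 in PRMT1 libraries, a 1.94-fold difference, with an exact permutation p of 0.1. That is the smallest p that 3 against 3 libraries allow, and it was 0.35 after the same adjustment. With 1 library left out at a time the log2 difference ran from 0.62, with control library 3 out, to 1.22, with control library 2 out. It was 0.80 with PRMT1 library 1 out and 1.07 with control library 2 and PRMT1 library 1 both out.

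Y RNA also stood higher relative to 5.8S rRNA in PRMT1 libraries. For every 100 reads of 5.8S rRNA there were 41.8, 64.3 and 55.1 Y RNA reads in control libraries 1, 2 and 3, and 72.9, 71.4 and 72.3 in PRMT1 libraries 1, 2 and 3. The PRMT1 libraries lay close together, although their Y RNA shares ran from 0.433% to 1.25%. All were above the control libraries, as in 9.14% of tested rows relative to 5.8S rRNA. The mean log2 ratio was -0.92 ± 0.32 (SD, n = 3) for control libraries and -0.47 ± 0.01 (SD, n = 3) for PRMT1 libraries, a difference of 0.45 (exact permutation p = 0.1, adjusted 0.35). This difference fell to 0.28 with control library 1 out and was 0.59 with control library 2 out, 0.44 with PRMT1 library 1 out and 0.58 with control library 2 and PRMT1 library 1 both out. The ratio of tRNA to Y RNA overlapped between groups, at 53.8, 46.0 and 23.3 tRNA reads per 100 Y RNA reads in control and 67.5, 44.7 and 54.8 in PRMT1 libraries (exact permutation p = 0.4, adjusted 0.583). The log2 difference of 0.51 became 0.14 with control library 3 out, 0.36 with PRMT1 library 1 out and 0.74 with control library 1 out. With PRMT1 library 2 out it was 0.65. The groups then no longer overlapped (exact permutation p = 0.2, the smallest that 3 against 2 libraries allow). How many of all tested rows did so under that omission was not counted. With all 6 libraries in, 51 of 1729 tested rows (2.95%) did not overlap relative to Y RNA.

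Relative to 5.8S rRNA, 158 of 1729 other tested rows (9.14%) lay higher in PRMT1 libraries without overlap and 2 (0.116%) lay lower. The tRNA and Y RNA ratios share the 5.8S denominator, so they are not separate observations. The rRNAs of the same precursor were compared in the same way after the values above had been seen. There were 64.0, 55.2 and 34.6 small subunit rRNA reads per 100 reads of 5.8S rRNA in control libraries 1, 2 and 3, and 136, 72.1 and 76.9 in PRMT1 libraries 1, 2 and 3. Large subunit rRNA stood at 32.5, 42.1 and 28.7 reads per 100 reads of 5.8S rRNA in control libraries and at 45.0, 54.6 and 46.0 in PRMT1 libraries. Neither ratio overlapped between groups, with log2 differences of 0.87 and 0.51 and exact permutation p-values of 0.1 each, or 0.225 adjusted over 9 shares and ratios. Over the same 9, the adjusted permutation p was also 0.225 for the tRNA and Y RNA ratios to 5.8S rRNA. The 0.35 given for those ratios above was adjusted over the 7 planned ones, so 0.225 does not mark the added ratios as stronger. With PRMT1 library 1 out the log2 differences were 0.58 and 0.56, with control library 2 out 0.95 and 0.66, and with both out 0.66 and 0.71, for the small and the large subunit.

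**Figure D3:**
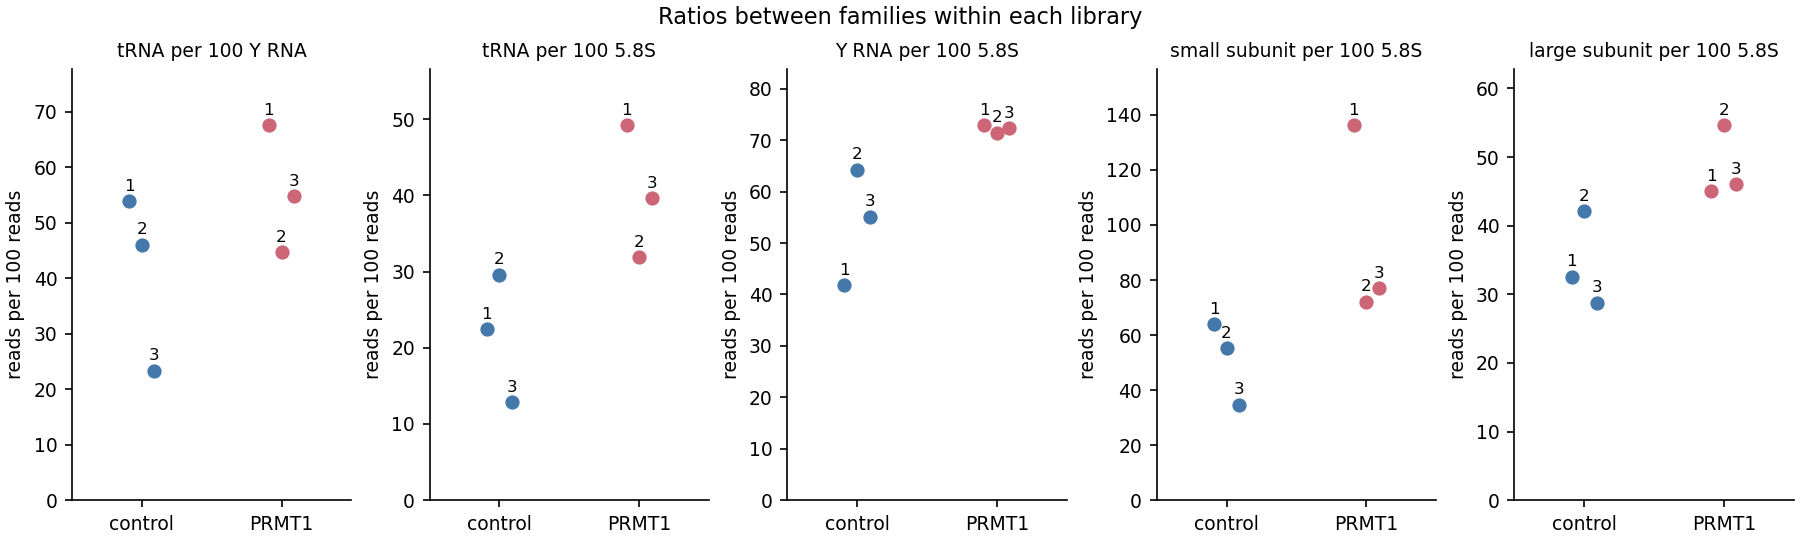
Reads of tRNA, Y RNA, small subunit rRNA and large subunit rRNA per 100 reads of the second family named in each panel title (vertical axis, from 0), with 1 point per library labelled by number. In the 4 panels with 5.8S rRNA as the denominator every PRMT1 library lies above every control library, and the 3 PRMT1 libraries lie between 71.4 and 72.9 for Y RNA.

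The choice of denominator changed which family stood apart. As a share of all Rfam counts, tRNA took 3.84%, 3.55% and 3.27% in control libraries and 5.75%, 5.10% and 6.93% in PRMT1 libraries, without overlap (exact permutation p = 0.1). Of 302 tested Rfam rows, 43 (14.2%) were higher in PRMT1 libraries without overlap on that scale. The Rfam denominator itself took 9.95%, 9.92% and 9.92% of the library total in control libraries 1, 2 and 3. In PRMT1 libraries 1, 2 and 3 it took 5.08%, 10.98% and 7.24%. PRMT1 library 1 had the lowest tRNA share of the library total, at 0.292%. As a share of all counts other than known miRNAs, 5.8S rRNA took 3.44%, 3.45% and 4.86% in control libraries and 1.48%, 3.26% and 2.57% in PRMT1 libraries, also without overlap (exact permutation p = 0.1). On that scale 54 of 1059 tested rows (5.1%) were lower in PRMT1 libraries without overlap. As shares of the library total all 3 families overlapped. Y RNA overlapped under each denominator tried. The p-values on these other denominators are not adjusted.

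The pattern over the 6 libraries was compared between rows by the SD of the log2 ratio of their counts, over 183 rows with a mean of at least 100 CPM of the library total. Outside the members, the row most like Y RNA was large subunit rRNA (SD 0.21), followed by the piRNA row hsa_piR_020388 (SD 0.32) and the small nucleolar RNA SNORD44 (SD 0.35). Large subunit rRNA was also the row outside the members most like 5.8S rRNA (SD 0.34), before the small nucleolar RNAs SNORD74 (SD 0.36) and SNORD37 (SD 0.39). Y RNA and 5.8S rRNA were closer to each other (SD 0.32) than either was to tRNA (SD 0.53 and 0.68). The rows most like tRNA were the small cytoplasmic RNA family of MALAT1 and MEN beta (SD 0.22), small subunit rRNA (SD 0.27) and the family of bacterial small subunit rRNA (SD 0.30). The median SD over the compared rows was 0.56 against tRNA, 0.80 against Y RNA and 0.86 against 5.8S rRNA. These values describe 6 libraries that share totals and carry no test.

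Other structural RNAs, a list of 19 families of rRNA, spliceosomal RNA, RNA polymerase III transcripts, U7 (which acts in histone mRNA processing) and telomerase RNA, also gave 0 calls among the 15 tested, against 0% of all rows. The list had 4 log2 fold changes above and 11 below 0 with a median of -0.07, and all 1730 tested rows had 798 above and 932 below 0 with a median of -0.06. Small subunit rRNA, the scaffold of decoding, took 0.658% to 1.27% of the library total (log2 fold change 0.11, SE 0.26). Large subunit rRNA, which holds the peptidyl transferase centre, took 0.267% to 0.958% (log2 -0.07, SE 0.48). Fragments of 7SK, which holds the elongation factor P-TEFb inactive, were at log2 -0.42 (SE 0.34), and those of U6 and U2, parts of the spliceosome, at -0.11 (SE 0.35) and -0.20 (SE 0.25). Fragments of the signal recognition particle RNA, which targets secreted proteins to the endoplasmic reticulum, were at -0.06 (SE 0.39). PRMT1 library 1 was lowest in 7 and PRMT1 library 2 highest in 10 of the 15 families, where 20.1% and 20.2% of all tested rows had those libraries at these extremes. Relative to 5.8S rRNA, 7 of the 15 families lay higher in PRMT1 libraries without overlap, beside 9.14% of all tested rows, and 0 lower, beside 0.116%.

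**Figure D4:**
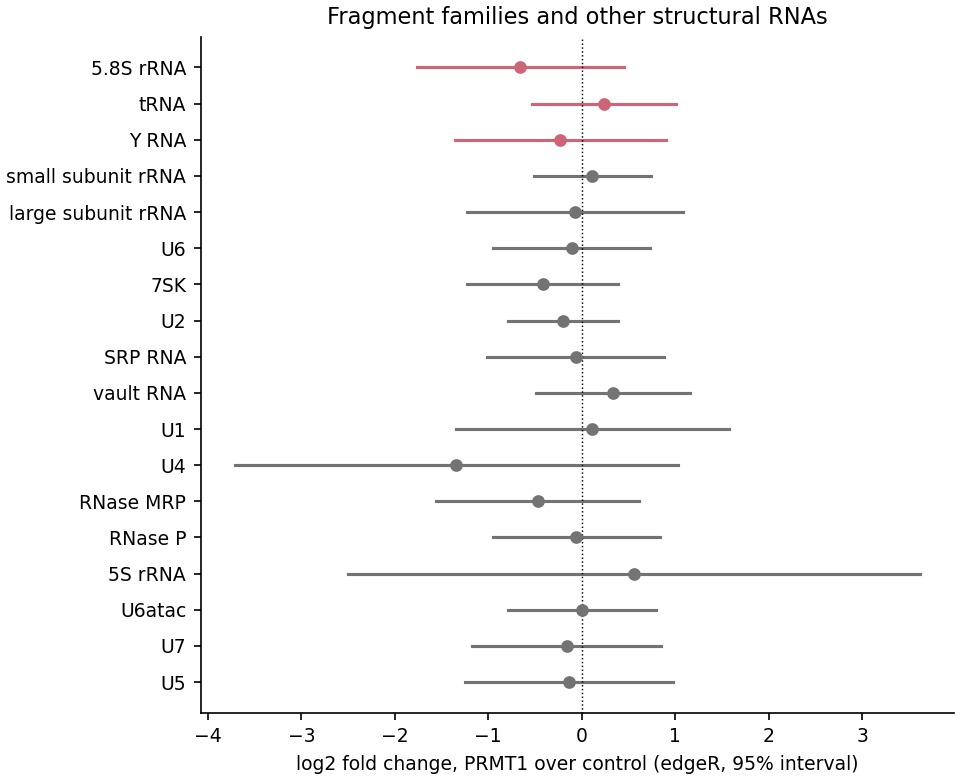
Log2 fold change of PRMT1 over control from edgeR with its 95% interval (horizontal axis) for the 3 fragment families in pink and 15 other structural RNA families in grey. Every interval spans 0, and that of 5.8S rRNA runs from -1.77 to 0.45.

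Some miRNA names resemble pieces of tRNA or rRNA, and their reads are counted outside the 3 families. Of 21 such names listed for this purpose, 10 had rows, 11 in all with both arms of miR-4485, and 8 rows passed the filter and were tested. None was called, and 6 of the 8 log2 fold changes were above 0, where 46.1% of all tested rows were. Their median was 1.57, against -0.06 over all tested rows, and it was not recomputed with libraries left out. All 6 rows above 0 had more reads in PRMT1 libraries 1 and 3 than in any control library. None of the 6 did so in PRMT1 library 2. The names were listed with earlier results known and moved together, so the count and the median are not a test. Of the 11 rows, 0 lay higher in PRMT1 libraries without overlap. A mature tRNA ends in CCA, which is added after transcription. Of the 9 listed rows with a RefSeq sequence (GRCh38.p14), 4 end in CCA, as do 27 (1.76%) of the 1533 known miRNA names in these tables with a RefSeq sequence. These 4 sequences are shown because their 3′ ends match that of a mature tRNA, with CCA in capitals. A match of 3 bases is a description and does not show where the reads came from. The names were listed for resembling such RNAs, so their share of CCA ends is not a test.
miR-1260a: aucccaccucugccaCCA
miR-7977: uucccagccaacgcaCCA
miR-4454: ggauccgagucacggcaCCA
miR-7975: auccuagucacggcaCCA

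The most abundant listed name, miR-1260a, had 505, 365 and 1022 reads in control libraries 1, 2 and 3 and 1794, 557 and 5232 in PRMT1 libraries 1, 2 and 3. PRMT1 library 3 held the most reads and the groups overlapped (log2 fold change 1.95, SE 0.86, adjusted p = 0.998 with edgeR), and the value was 0.83 without that library. MiR-7977 had 229, 147 and 300 reads in control and 494, 169 and 1309 in PRMT1 libraries (log2 1.48, SE 0.76, and 0.49 without PRMT1 library 3). Within the PRMT1 group both names were lowest in library 2, which was the library with the highest share of the tRNA family. MiR-4454 had 369, 410 and 327 reads in control and 455, 255 and 447 in PRMT1 libraries (log2 -0.08, SE 0.34), and its sign changed without control library 2 (0.15), without PRMT1 library 2 (0.26) or without control library 2 and PRMT1 library 1 together (0.02). MiR-7975, named after its values were seen, had 28, 30 and 34 reads in control and 104, 12 and 173 in PRMT1 libraries, also with PRMT1 library 2 lowest and PRMT1 library 3 highest. MiR-4521 had 477, 506 and 426 reads in control and 408, 340 and 414 in PRMT1 libraries, the only one of the 4 most abundant names whose shares of the library total did not overlap, where 7.51% of all tested rows did not (log2 -0.42, SE 0.26, adjusted p = 0.998 with edgeR, and -0.22 without control library 2 and -0.23 without PRMT1 library 2).

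**Figure D5:**
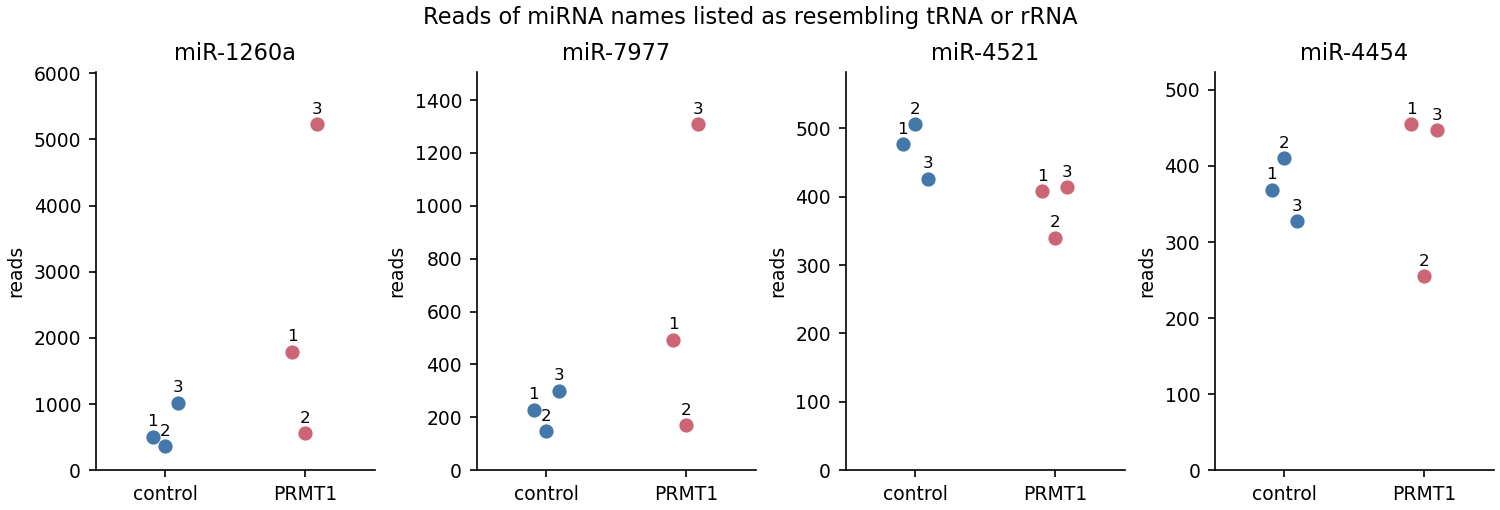
Reads per library (vertical axis, from 0) of the 4 most abundant miRNA names listed as resembling tRNA or rRNA, with 1 point per library labelled by number. MiR-1260a and miR-7977 are highest in PRMT1 library 3, at 5232 and 1309 reads, while miR-4454 and miR-4521 stay between 255 and 506 reads.

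The whole sequence of 2 known miRNA names lies in an RNA of this kind, among the 22 mitochondrial tRNAs, RNY1, RNY4 and 5.8S rRNA. They were found by this search and not listed beforehand. Nuclear tRNAs and other Y RNA genes were not searched. The search used the 1533 of 1727 known miRNA names that had a RefSeq sequence, so further names may lie in such RNAs. MiR-12136 equals the first 18 bases of the mitochondrial serine tRNA MT-TS1 (chrM:7446-7514, minus strand), and miR-4284 equals bases 49 to 66 of the mitochondrial phenylalanine tRNA MT-TF (chrM:577-647, plus strand), both from GENCODE release 29 on GRCh38. Capitals mark the stretch that each miRNA name covers.
MT-TS1: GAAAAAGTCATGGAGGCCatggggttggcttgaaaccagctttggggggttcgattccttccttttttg
MT-TF: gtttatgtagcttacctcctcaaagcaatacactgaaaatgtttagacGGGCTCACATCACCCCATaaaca

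MiR-12136 had 2504, 1298 and 3508 reads in control and 3110, 1503 and 2568 in PRMT1 libraries (log2 -0.14, SE 0.41). Its sign changed without control library 3 (0.19) or PRMT1 library 2 (0.19), and it was -0.55 without control library 2 and PRMT1 library 1 together. MiR-4284 had 3 to 56 reads per library. The groups overlapped for both names. The reads of miR-12136 were thus a small number beside the 70184 to 144315 reads of the tRNA row, and whether that row includes mitochondrial tRNAs was not given in the sources used here.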

How the data were processed

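Small RNA libraries of 6 BEAS-2B samples were analysed, with groups taken from the labels. The deposited tables give a count and a TPM value per small RNA, per the file headers, with the library total in the header of the count column. In the authors' tables TPM equalled CPM of that total to within 0.005. The submitters' processing notes list HISAT, Bowtie2 and RSEM and, as the build, GRCh37.p13, whose role for these rows was not given in the sources used here.

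Shares are percentages of the library total. Differences between groups in shares and in log2 ratios were tested with two-sided exact permutation tests in scipy 1.17.1 and adjusted by the Benjamini-Hochberg method. Counts of all rows were fitted with edgeR 4.0.16 in R 4.3.3 (filterByExpr, TMM scaling, robust quasi-likelihood test), and adjusted p-values cover all 1730 tested rows, with a threshold of 0.05. The fit was also run on 3 data sets simulated from its own dispersion estimates, and their outcome is not reported here. Member counts ran from 70184 to 606301, and a count of 0 would allow a share of up to 1.25e-05%, from 3 counts of the smallest total. Reads carry no stated molecular identifiers, so intervals cover counting error only. Alternatives were DESeq2 1.42.0, limma-voom (limma 3.58.1), other scalings, filters and denominators, a pseudocount of 1 in the ratios, a replicate block and the omission of each library. The omission of control library 2 and PRMT1 library 1 together and the ratios of subunit rRNA to 5.8S rRNA were chosen after seeing the data. The members and lists were chosen with earlier results of these data known. Named were the 3 members, the 6 listed structural families with the highest mean share, the 3 rows most like each member and the 4 most abundant listed miRNA names.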

Additional observations from a re-analysis of the deposited data

How the results depend on the processing

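The direction of the tRNA and 5.8S rRNA folds and of all 5 ratios held under each alternative run, and no member was called by edgeR, DESeq2 or limma-voom. With each library left out in turn, the log2 fold change ran from 0.12 to 0.54 for tRNA, from -0.54 to 0.14 for Y RNA and from -0.99 to -0.29 for 5.8S rRNA. Y RNA was at 0.067 without control library 2 and PRMT1 library 1 together. Its difference in share, -0.0882 percentage points with all libraries, ran from -0.281 to 0.130 over single omissions, was 0.0341 without both of those libraries and 1.23 percentage points as a share of Rfam counts. The summed share, -0.591 with all libraries, ran from -1.11 to 0.0119 over single omissions and was 0.472 as a share of Rfam counts. The cause of these changes of sign was not tested. DESeq2 called 10 rows in place of 0, and the single omissions 0 to 1, the single call being miR-378e when PRMT1 library 1 was out.

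A fit with a block for replicate numbers gave log2 fold changes of 0.17 for tRNA, -0.34 for Y RNA and -0.80 for 5.8S rRNA, and 0 rows were called. The deviations of same-numbered libraries from their group means had correlations of 0.14, 0.29 and 0.07. Control libraries 2 and 3 and PRMT1 libraries 1 and 2 correlated best with their own number, and control library 1 and PRMT1 library 3 with each other (0.18). The submitters state no block, and the libraries were treated as sharing only a number. Exact sign-flip permutation tests on the ratios to 5.8S rRNA gave p = 0.25, the smallest that 3 pairs allow. With 3 libraries per group, no exact permutation p can go below 0.1, and depth was not the limit for the 3 families.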

Other observations

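The row with the highest mean share among the same 321 Rfam families was transfer-messenger RNA, an RNA known from bacteria and some organelles that joins features of a tRNA and an mRNA. It is a row of its own outside the tRNA family and took 3.17%, 1.37% and 1.79% of the library total in control libraries 1, 2 and 3 and 0.295%, 2.78% and 0.662% in PRMT1 libraries 1, 2 and 3. The groups overlapped, and PRMT1 library 1 was lowest. Which genes its reads came from was not tested. The selenocysteine tRNA, which reads a stop codon as selenocysteine, also has its own row and took at most 0.00764% of any library, with PRMT1 library 1 again lowest at 5.8e-05% and PRMT1 library 2 highest.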
